A study of Mus musculus with 59 samples.

Results

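The hippocampus of mice carrying an expanded Atxn1 allele was compared with the hippocampus of mice in which the same expanded allele can no longer bind Capicua (CIC). The comparison held 7 libraries of the 59 in the series, chosen by their labels. They were the 4 hippocampal libraries labelled 154Q-AXH (mice AXH-207, AXH-209, AXH-217 and AXH-218) and 3 hippocampal libraries labelled 154Q (mice 69, 71 and 75). The other 154Q hippocampal library, from mouse 76, was left out because it carried brainstem transcripts. The reference level came from 4 WT hippocampal libraries, WT-70 and WT-77 in the lower number range and WT-220 and WT-221 in the higher. All mice were 10 weeks old and on a C57BL/6 background. The 154Q mice were Atxn1 154Q/2Q knockins, with an expanded polyglutamine tract in 1 allele of the endogenous gene. The 154Q-AXH mice carried the same knockin allele edited by CRISPR to hold the substitutions V591A and S602D in its AXH domain, also over a 2Q allele. Both mutant groups therefore share the expansion in every tissue. Their expanded alleles differ in the 2 substitutions and in synonymous changes that the editing also introduced. The tissue was dissected bulk hippocampus, in which fewer cells of a type and less RNA per cell cannot be told apart.

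ATXN1 is a nuclear protein whose polyglutamine expansion causes spinocerebellar ataxia type 1. Through its AXH domain it binds CIC, an HMG-box repressor that silences genes of receptor tyrosine kinase and MAPK signalling, such as the Etv, Spry and Dusp genes, at a short octamer. The hippocampus, with its dentate granule cells and CA pyramidal neurons, serves learning and memory, which are impaired in mice with the knockin.

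The 11 hippocampal libraries held between 69468491 and 106454315 read pairs assigned to genes. Summed levels of the dentate granule cell markers were 705 to 1773 counts per 1000000 read pairs on genes (CPM) in these libraries, against at most 443 CPM in any library of the other regions. Hindbrain markers summed to 4.22 to 10.4 CPM, against 610 CPM in the left-out library and 990 to 1222 CPM in brainstem libraries. Xist and Ddx3y marked mouse 75 of the 154Q group and mouse AXH-217 of the 154Q-AXH group as female and the other 9 mice as male. Mouse numbers coincided with genotype: all 154Q mice had numbers from 69 to 75, all 154Q-AXH mice had numbers from AXH-207 to AXH-218, and only WT mice fell in both ranges. An effect of the number range and the effect of the substitutions could thus be told apart only through 2 and 2 WT mice. Library AXH-218 stood apart in marker levels, with the highest dentate granule markers (1773 CPM) and the lowest oligodendrocyte markers (3709 CPM, against 5701 to 11422 CPM in the other 10).

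Promoter sequence is shown for 2 of the genes that the comparison called, Hoxa2 and Hoxc4, and for 2 CIC target genes of MAPK signalling, Spred3 and Dusp6, to show where the CIC octamer stands. Each is the 250 bases before the gene's start in RefSeq (build GRCm38.p6), in the direction of transcription. Capitals mark the octamer, searched as TGAATGNA or TCAATGNA on both strands.
Hoxa2, chr6:52164832-52165081, minus strand: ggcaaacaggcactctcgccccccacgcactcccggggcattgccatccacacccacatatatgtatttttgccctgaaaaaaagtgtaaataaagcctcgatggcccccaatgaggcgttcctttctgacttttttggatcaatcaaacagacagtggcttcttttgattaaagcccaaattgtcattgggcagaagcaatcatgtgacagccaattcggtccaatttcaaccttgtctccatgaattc
Hoxc4, chr15:103034145-103034394, plus strand: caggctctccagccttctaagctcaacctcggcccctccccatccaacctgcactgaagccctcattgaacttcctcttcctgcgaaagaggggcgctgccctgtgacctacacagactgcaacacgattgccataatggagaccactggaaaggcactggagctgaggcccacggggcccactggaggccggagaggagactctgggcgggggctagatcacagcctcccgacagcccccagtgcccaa
Spred3, chr7:29168648-29168897, minus strand: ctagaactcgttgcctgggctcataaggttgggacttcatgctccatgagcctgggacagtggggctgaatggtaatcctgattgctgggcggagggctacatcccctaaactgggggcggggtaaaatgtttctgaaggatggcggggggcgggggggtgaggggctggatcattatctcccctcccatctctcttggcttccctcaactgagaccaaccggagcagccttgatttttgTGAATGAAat
Dusp6, chr10:99262981-99263230, plus strand: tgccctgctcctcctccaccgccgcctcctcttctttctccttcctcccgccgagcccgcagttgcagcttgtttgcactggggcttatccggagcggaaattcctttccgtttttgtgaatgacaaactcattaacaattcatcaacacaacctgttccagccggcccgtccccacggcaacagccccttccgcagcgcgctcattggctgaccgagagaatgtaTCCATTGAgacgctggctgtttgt
The octamer was in no base of the Hoxa2 and Hoxc4 windows. It stood 10 bases before the start of Spred3 and, on the other strand, 24 bases before that of Dusp6. Of the 12 CIC targets of MAPK signalling with a RefSeq window, 4 held it (33.3%), against 5.87% of all 27025 genes with a window. Of the 1059 genes with a window that the study lists with a cerebellar CIC peak, 65 held it (6.14%). A match of letters is a description of the sequence and not a measured binding site.

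The direct comparison asked which hippocampal transcripts differ when expanded ATXN1 loses its hold on CIC. Of 21754 genes tested with edgeR's quasi-likelihood test, 4 were called at a Benjamini-Hochberg adjusted p under 0.05 (0.0184% of genes tested), and all 4 were lower in 154Q-AXH than in 154Q. They were the homeobox genes Hoxa2 and Hoxc4, the long non-coding RNA Hoxaas2 of the same HoxA cluster, and Wt1. None was higher. At an unadjusted p under 0.05, 930 genes were higher and 687 lower. All 4 were scarcely detected in WT and were present in every 154Q library, and the mean of the 154Q-AXH libraries lay between the means of the other groups.

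Hoxa2 encodes a homeodomain factor that sets the identity of the second branchial arch and the anterior hindbrain (chr6:52162417-52164831, minus strand). It had 0 counts in each of the 4 WT libraries. In the 154Q libraries it had 38, 29 and 27 counts (mice 69, 71 and 75), and in the 154Q-AXH libraries 1, 0, 1 and 2 counts (mice AXH-207, AXH-209, AXH-217 and AXH-218). The groups did not overlap, and the 154Q-AXH counts were at the level of single reads. The summed counts of 94 and 4 gave a level 28.8-fold higher in 154Q than in 154Q-AXH, with a 95% interval from counting error alone of 10.9 to 108. Against a floor of 3 counts over the WT group, the 154Q level was at least 39.9-fold higher than WT. The fitted difference was −4.69 on the log2 scale (SE 0.47), with an adjusted p of 0.0017 in edgeR's test.

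Hoxaas2, an antisense transcript of the HoxA cluster (chr6:52165674-52169564, plus strand), had 1, 1, 0 and 0 counts in WT. It had 96, 54 and 81 counts in 154Q, and 3, 11, 10 and 2 in 154Q-AXH. Every 154Q library was above every 154Q-AXH library, and every 154Q-AXH library was above every WT library, by as little as 1 read. The difference was −3.42 (SE 0.38, adjusted p = 0.00408 in edgeR's test). Reads were counted without regard to strand, and 15% of its exon bases overlap exons of Hoxa3 on the other strand. Read pairs on exons of both genes were left out of the counts of either. Hoxa3 itself had at most 4 counts in any of the 11 libraries.

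Hoxc4, a homeobox gene of the posterior hindbrain and spinal cord (chr15:103018934-103036852, plus strand), had 2, 2, 0 and 1 counts in WT. It had 36, 25 and 42 counts in 154Q, and 11, 7, 1 and 6 in 154Q-AXH. The 154Q libraries again stood above all others. The difference was −2.31 (SE 0.35, adjusted p = 0.0229 in edgeR's test). DESeq2 put the adjusted p at 0.0522, and the call was lost in 9 of the 11 fits that each left out 1 library.

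Wt1, a zinc finger factor required for kidney and gonad development (chr2:105126529-105173616, plus strand), had 4, 10, 5 and 10 counts in WT. It had 82, 69 and 96 counts in 154Q, and 21, 28, 26 and 20 in 154Q-AXH. No library of one genotype reached the range of another, so that 154Q-AXH was intermediate. As levels, these were 0.0859 ± 0.0329 CPM in WT (SD, n = 4), 0.943 ± 0.157 CPM in 154Q (n = 3) and 0.302 ± 0.0703 CPM in 154Q-AXH (n = 4). The difference between the mutant genotypes was −1.66 (SE 0.23, adjusted p = 0.0401 in edgeR's test). Wt1 was also called in both mutant genotypes against WT, by 3.42 in 154Q (adjusted p = 6.12e-05) and by 1.76 in 154Q-AXH (adjusted p = 0.0217). The call for the direct difference was lost in each of the 11 fits that left out 1 library, where the adjusted p was 0.0837 to 0.302.

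Hoxa2 and Hoxaas2 kept their calls in all 11 of those fits. With the 7 mutant libraries alone in the fit, Hoxa2 was the 1 gene called, and with the number range of the mice as a covariate none was called (2515 genes at an unadjusted p under 0.05). The number range itself was called in 22 genes (0.101%).

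Against WT, the called HoxA and HoxC transcripts were raised in 154Q, with differences of 7.91 for Hoxa2, 6.88 for Hoxaas2 and 4.58 for Hoxc4 (adjusted p = 5.92e-05 for each in edgeR's test). In 154Q-AXH none of the 3 was called against WT (adjusted p = 0.253, 0.102 and 0.0805). Fitted differences of genes at or near 0 in WT depend on the small count that the software adds, and they are no bounds.

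Other hindbrain markers did not follow a single pattern in these libraries. Of the 27 hindbrain markers listed, 10 passed the filter on low counts, and of those Hoxa2 and Hoxc4 were called. Hoxb2, which did not pass it, was seen with 7, 8 and 9 counts in the 3 154Q libraries. In 154Q-AXH it had at most 5 counts, and in WT at most 3. Hoxb3 had at most 4 counts in any of the 11 libraries, Hoxb5 at most 17 and Hoxd3 at most 2. The left-out library had 271 counts of Hoxa2 beside 3058 of Hoxb5 and 29248 of Slc6a5, the glycine transporter of hindbrain neurons. The 3 154Q libraries had 27 to 38 counts of Hoxa2 beside 5 to 17 of Hoxb5 and 20 to 99 of Slc6a5, and the 4 WT libraries had 13 to 107 of Slc6a5 with no Hoxa2. Tph2, the enzyme of serotonin synthesis in brainstem neurons, had 74 to 165 counts in WT, 134 to 226 in 154Q and 145 to 181 in 154Q-AXH. The part of hindbrain tissue in the Hox counts was not tested.

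**Figure D1:**
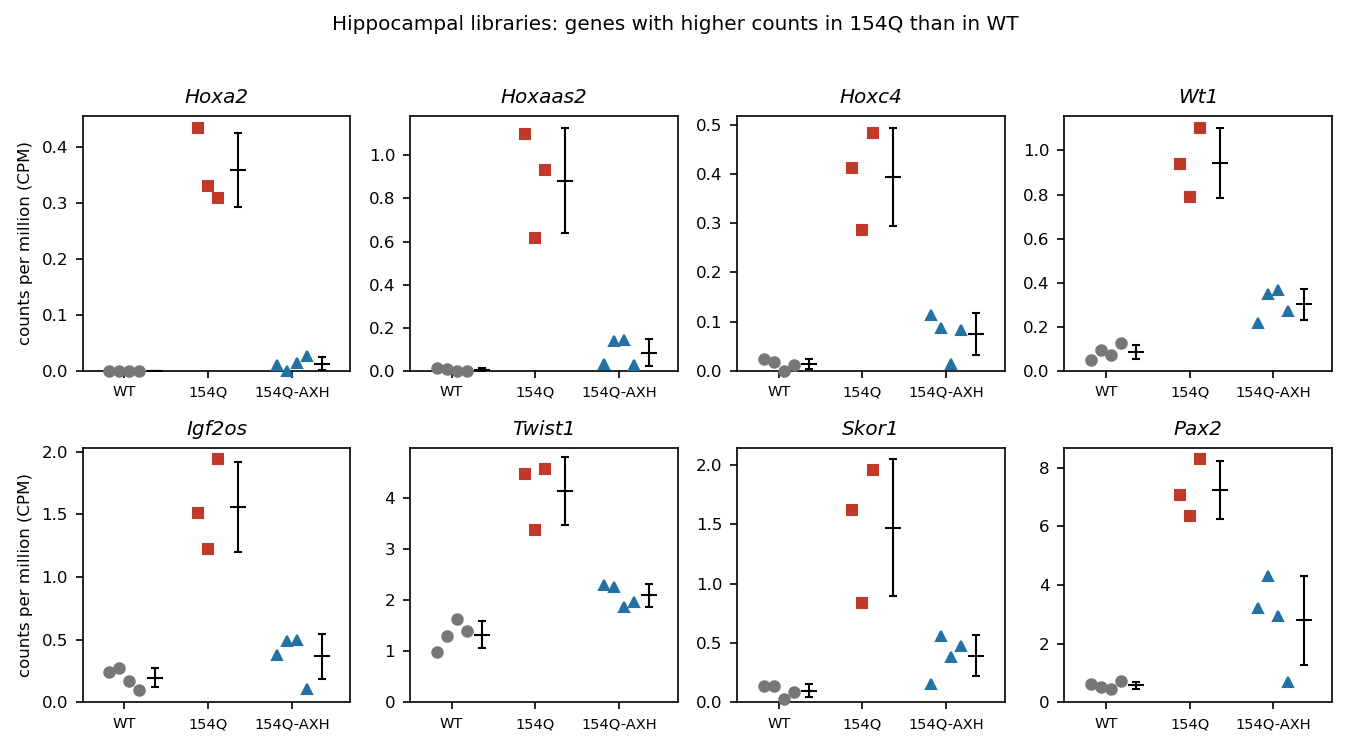
Level in CPM (linear axes from 0) of 8 genes in each hippocampal library of WT (circles, n = 4), 154Q (squares, n = 3) and 154Q-AXH (triangles, n = 4), with the mean and SD of each group beside the points. The 3 154Q libraries lie above all 4 154Q-AXH libraries in every panel, and the 154Q-AXH mean lies nearer to the WT mean.

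A further 4 genes had the same order of group means without an edgeR call. Of these, Twist1, Igf2os and Pax2 were chosen after their values were seen. Twist1, a basic helix-loop-helix factor of mesoderm and neural crest, was at 4.47, 3.37 and 4.56 CPM in 154Q and at 2.29, 2.26, 1.86 and 1.96 CPM in 154Q-AXH. WT libraries were at 0.982 to 1.62 CPM, and the direct difference was −0.97 (95% interval −1.31 to −0.64, adjusted p = 0.128 in edgeR's test, 0.000212 in DESeq2). Igf2os, an antisense transcript of the imprinted Igf2 locus, was at 1.51, 1.22 and 1.94 CPM in 154Q and at 0.382, 0.487, 0.497 and 0.109 CPM in 154Q-AXH. Its difference was −2.07 (−2.73 to −1.40, adjusted p = 0.085 in edgeR's test, 0.00136 in DESeq2). Skor1, a transcriptional corepressor of dorsal spinal and cerebellar neurons, was at 1.62, 0.835 and 1.95 CPM in 154Q and at 0.155, 0.562, 0.383 and 0.479 CPM in 154Q-AXH. That difference was −1.94 (−2.73 to −1.15, adjusted p = 0.406 in edgeR's test, 0.0321 in DESeq2). Pax2, a paired-box factor of kidney and the midbrain-hindbrain boundary, was at 7.07, 6.34 and 8.30 CPM in 154Q, and at 3.20, 4.32, 2.95 and 0.711 CPM in 154Q-AXH. WT had 0.460 to 0.725 CPM of Pax2, so 3 of the 4 154Q-AXH libraries were above every WT library and library AXH-218 was within the WT range. The difference was −1.35 (−2.04 to −0.67, adjusted p = 0.663).

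**Figure D2:**
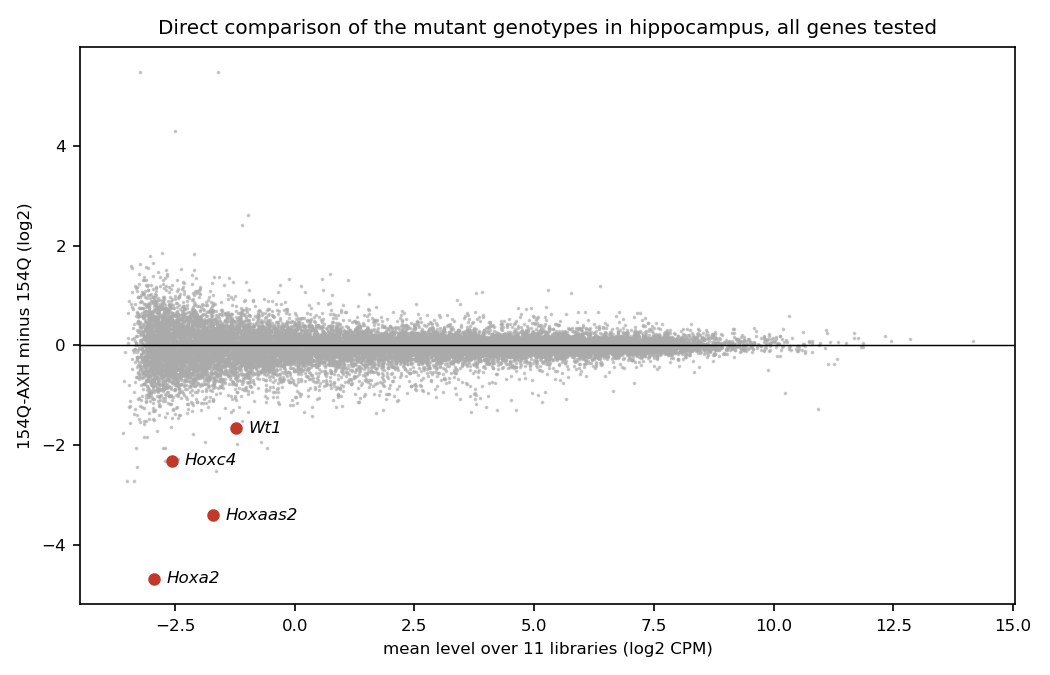
Difference between 154Q-AXH and 154Q (log2) against the mean level over the 11 hippocampal libraries (log2 CPM) for each of the 21754 genes tested, with the 4 called genes labelled. All 4 lie below 0, at mean levels under 1 CPM, and the cloud of other genes is centred on 0.

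The median direct difference over all genes tested was 0.00017, and its median standard error was 0.133 on the log2 scale. For 13180 of the 21754 genes (60.6%), the 95% interval of the difference lay within a 1.5-fold change in either direction. Among the 15136 genes with a mean level over 1 CPM the share was 84.8%. In the same 11-library fit, 154Q differed from WT in 1318 genes (6.06%), of which 532 were raised (2.45%) and 786 lowered (3.61%). In 154Q-AXH 786 genes differed from WT (3.61%), of which 338 were raised (1.55%) and 448 lowered (2.06%). These contrasts share the WT libraries.

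To describe how far the changes of the expansion remained when CIC binding was lost, genes were chosen by the mean of all 7 mutant libraries against WT, a contrast whose error is not shared with the difference between the mutant genotypes. This comparison was added after seeing the data. It called 1718 genes (7.9%), of which 724 were raised (3.33%) and 994 lowered (4.57%). Over the 724 raised genes the median difference from WT was 0.38 in 154Q and 0.37 in 154Q-AXH, and the median direct difference was −0.03. Over the 994 lowered genes these medians were −0.44 and −0.35, with a median direct difference of 0.08.

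By library, the median deviation of the raised genes from the WT mean was 0.430, 0.366 and 0.403 in the 154Q mice, and 0.333, 0.334, 0.409 and 0.382 in the 154Q-AXH mice. The groups overlapped. For the lowered genes it was −0.491, −0.435 and −0.376 in 154Q, and −0.361, −0.338, −0.378 and −0.331 in 154Q-AXH. Here the groups overlapped as well, by 1 library (mouse AXH-217). Of the lowered genes, 720 of 994 (72.4%) were higher in 154Q-AXH than in 154Q, against 50.0% of all genes tested. Of the raised genes, 433 of 724 (59.8%) were lower in 154Q-AXH, against 50.0% of all genes. The 4 genes called in the direct comparison were among the 724, and none of the 994 was called.

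**Figure D3:**
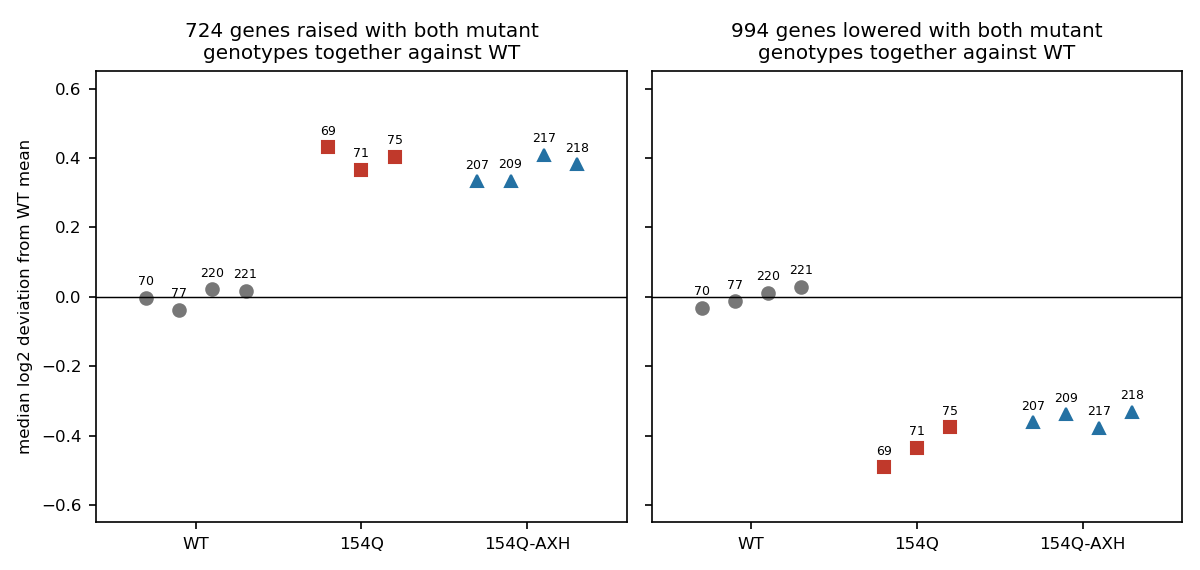
Median deviation from the WT mean (log2) in each hippocampal library over the 724 genes raised (left) and the 994 genes lowered (right) with both mutant genotypes together against WT, with mouse numbers above the points. All 7 mutant libraries lie between 0.333 and 0.430 for the raised genes, and between −0.491 and −0.331 for the lowered genes.

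Levels are given for 6 genes that were changed in both mutant genotypes, chosen after their values were seen. Penk, the precursor of enkephalins, was at 18.8 ± 1.73 CPM in WT (SD, n = 4), 5.14 ± 0.663 CPM in 154Q (n = 3) and 6.01 ± 0.147 CPM in 154Q-AXH (n = 4). Bhlhe40, a circadian and activity-linked repressor, was at 110 CPM in WT, 56.5 CPM in 154Q and 59.1 CPM in 154Q-AXH, with a direct difference of 0.06 (95% interval −0.09 to 0.21). Itpka, a kinase of inositol trisphosphate in dendritic spines, was at 187, 74.6 and 88.7 CPM. Among raised genes, Pnck, a calmodulin-dependent kinase, was at 48.3, 73.3 and 77.1 CPM, with a direct difference of 0.07 (−0.07 to 0.21). Otogl, an otogelin-like gene, was at 2.24, 6.93 and 5.82 CPM, and the sodium channel gene Scn9a at 4.5, 10.9 and 10.3 CPM. All 6 were called with both mutant genotypes together against WT, and none was called between them (adjusted p = 0.663 or more in edgeR's test). They do not stand for the whole sets. The direct difference had an unadjusted p under 0.05 in 19.3% of the 994 lowered and 11.3% of the 724 raised genes. Over all genes tested the share was 7.43%.

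Atxn1 and the factors that bind its protein did not differ by a call. Atxn1 was at 97.4, 95 and 95 CPM in 154Q and at 89.7, 89.7, 93.2 and 98.2 CPM in 154Q-AXH, against 64.7 to 81.8 CPM in WT. The mutant genotypes overlapped and both were called as higher than WT, by 0.35 in 154Q (adjusted p = 0.0154) and 0.30 in 154Q-AXH (adjusted p = 0.03). The reads do not separate the expanded from the 2Q allele in these counts. Cic was at 137 ± 14.3, 144 ± 1.69 and 140 ± 10.3 CPM in WT, 154Q and 154Q-AXH (SD, n = 4, 3 and 4), a direct difference of −0.04 (−0.22 to 0.14). The paralogue Atxn1l was at 55.7, 60.4 and 55.7 CPM, with a direct difference of −0.12 (−0.25 to 0.01). Rfx1, Zbtb5 and Zkscan1, which encode other factors that bind ATXN1, had direct differences of −0.08, −0.09 and −0.03, all with intervals that included 0.

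The targets of CIC were tested as a list of 20 genes of MAPK signalling. None was called. At an unadjusted p under 0.05, 4 were higher in 154Q-AXH and none lower (930 and 687 of 21754 over all genes). The median direct difference over the 20 genes was 0.01, beside 0.00017 over all genes. Their median difference from WT was −0.12 in 154Q and −0.16 in 154Q-AXH. Etv4, an ETS factor, was at 7.44, 6.81 and 8.07 CPM in 154Q and at 8.56, 9.09, 9.84 and 10.3 CPM in 154Q-AXH. The groups did not overlap, and the difference was 0.34 (0.14 to 0.55, adjusted p = 0.663 in edgeR's test, unadjusted 0.00349). Spry1, an inhibitor of receptor tyrosine kinase signalling, differed by 0.37 (0.09 to 0.66), with 14.1 CPM in library AXH-218 and 8.35 to 11.4 CPM in the other 6 mutant libraries. Etv5, Spry4 and the ERK phosphatase gene Dusp6 had differences of the other sign, −0.22 (−0.46 to 0.03), −0.19 (−0.39 to 0.01) and −0.26 (−0.59 to 0.07). Spred3, whose promoter window holds the octamer, was at 65.4 CPM in 154Q and 59.7 CPM in 154Q-AXH, a difference of −0.13 (−0.31 to 0.05).

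A wider list came from the study's cerebellar CIC peaks, named by gene and used for the gene names alone. Of its 1403 genes, 1219 were tested and none was called. At an unadjusted p under 0.05, 40 were higher and 38 lower in 154Q-AXH (930 and 687 of 21754 over all genes). The median direct difference over the 1219 was 0.01. Their median difference from WT was −0.02 in each mutant genotype. Against WT, 73 of the 1219 were called as lowered and 27 as raised in 154Q, beside 786 and 532 of 21754 over all genes. In 154Q-AXH 37 were lowered and 13 raised, beside 448 and 338 over all genes. Afap1l2, an actin-associated adaptor on this list, was at 9.92, 9.79 and 10.7 CPM in 154Q and at 12.7, 12.8, 11.6 and 15.2 CPM in 154Q-AXH, against 12.3 to 13.3 CPM in WT. Bdnf, a neurotrophin with a peak in the list, was at 40.6, 43.8 and 47.0 CPM in 154Q and at 50.1, 57.1, 53.2 and 60.5 CPM in 154Q-AXH. WT libraries were at 54.3 to 60.9 CPM of Bdnf, and the direct difference was 0.33 (0.17 to 0.50, adjusted p = 0.663 in edgeR's test, 0.0493 in DESeq2). Shc4, an adaptor of the Shc family, moved the other way, from 8.04, 8.61 and 8.47 CPM to 7.18, 6.58, 7.15 and 6.5 CPM, with WT at 6.87 to 7.49 CPM and a difference of −0.29 (−0.45 to −0.13, adjusted p = 0.663).

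DESeq2 on the same counts called 19 genes (0.0873% of genes tested), 10 raised (0.046%) and 9 lowered (0.0414%) in 154Q-AXH, and 3 of them were among edgeR's 4. The raised genes were Pter, Bdnf, Npy2r, Plk5, Fst, Tst, Ddn, Ppp1r1a, Gypc and Atp9b, none of which edgeR called. The lowered genes were Hoxa2, Hoxaas2, Wt1, Igf2os, Skor1, Twist1, Zswim6, Gm15478 and CT010467.1. Tst, a mitochondrial sulfurtransferase, was at 18.6, 17.4 and 18.8 CPM in 154Q and at 23.1, 24.2, 24.3 and 23.4 CPM in 154Q-AXH. WT libraries were at 20.4 to 23.4 CPM of Tst, below or within the range of 154Q-AXH. The difference was 0.38 (0.24 to 0.52), with an adjusted p of 0.192 in edgeR's test and 0.000148 in DESeq2.

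Plk5, a polo-like kinase family member found in neurons and glia, was at 5.12, 4.56 and 3.55 CPM in 154Q and at 6.96, 8.38, 7.71 and 13.9 CPM in 154Q-AXH. All 7 mutant libraries were below the WT libraries, at 22.8 to 28.3 CPM. Its difference was 1.06 (0.58 to 1.54, adjusted p = 0.663 in edgeR's test, 0.000794 in DESeq2). Ddn encodes dendrin, a protein of dendrites and spines, and was at 668, 717 and 825 CPM in 154Q and at 976, 1102, 950 and 1396 CPM in 154Q-AXH, with WT at 1709 to 2017 CPM. For both genes every 154Q-AXH library lay between the other groups. The 154Q-AXH mean was nearer to that of 154Q, while library AXH-218 was nearer to WT than to 154Q for Ddn.

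Npy2r, a presynaptic receptor of neuropeptide Y, was at 42.6, 36.6 and 49.4 CPM in 154Q and at 57.0, 71.3, 62.6 and 82.6 CPM in 154Q-AXH, with WT at 51.9 to 75.6 CPM. Ppp1r1a, an inhibitor of protein phosphatase 1, was at 46.5, 48.6 and 51.4 CPM in 154Q and at 58.5, 70.3, 62.0 and 86.7 CPM in 154Q-AXH, with WT at 79.9 to 89.2 CPM. Pter and Atp9b, a phospholipid flippase, had differences of 0.52 (0.28 to 0.76) and 0.24 (0.13 to 0.35) and 154Q-AXH means of 126 and 74.6 CPM beside WT means of 127 and 74.7 CPM. Follistatin, Fst, which binds activin, was at 0.538 ± 0.172 CPM in 154Q (SD, n = 3) and 1.46 ± 0.402 CPM in 154Q-AXH (n = 4), with 2.67 ± 1.26 CPM in WT. In each of these genes the 3 154Q libraries were below all 4 154Q-AXH libraries. Of all genes tested, 4.17% had 154Q-AXH libraries all above the 154Q libraries and 3.98% had them all below.

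**Figure D4:**
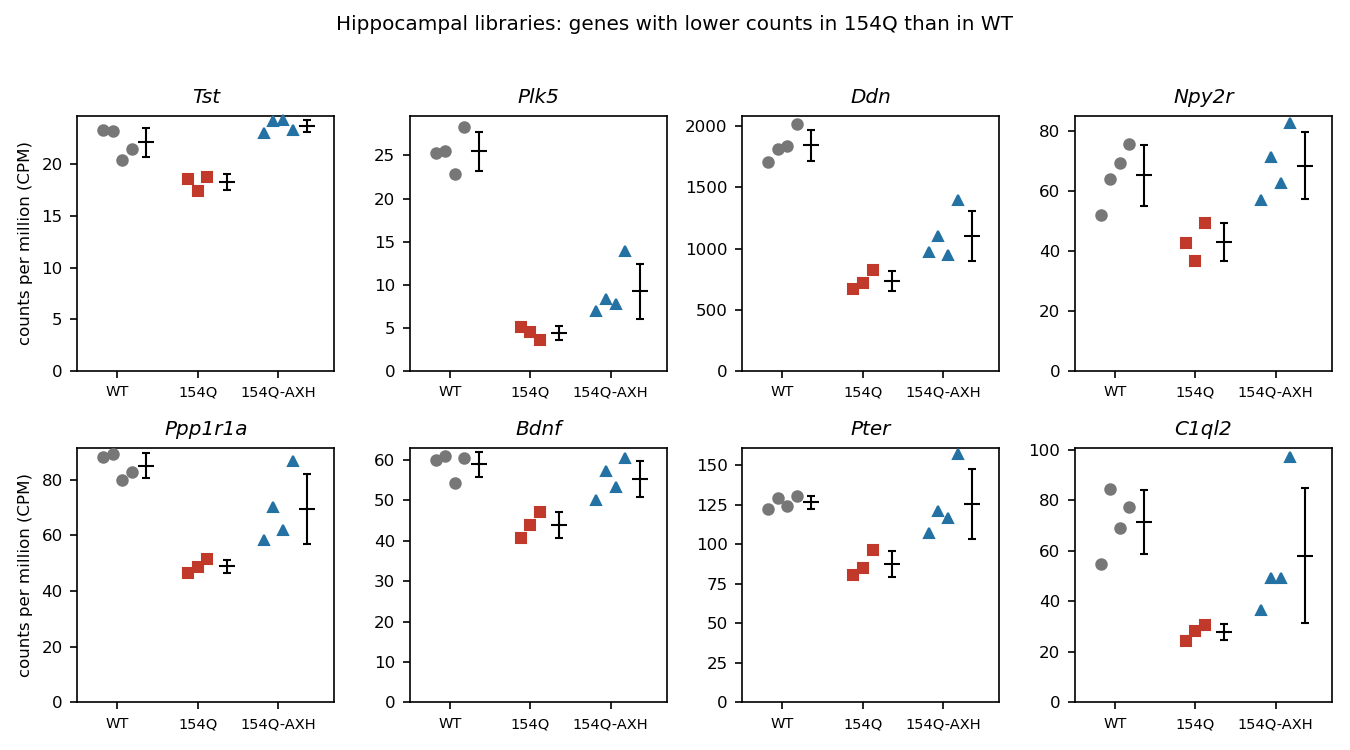
Level in CPM (linear axes from 0) of 8 genes in each hippocampal library of WT (circles, n = 4), 154Q (squares, n = 3) and 154Q-AXH (triangles, n = 4), with the mean and SD of each group beside the points. The 154Q libraries are the lowest in every panel, and the 154Q-AXH libraries reach the WT range for Tst, Npy2r and Pter and stay below it for Plk5 and Ddn.

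Dentate granule cell markers were the list farthest above 0. All 12 were higher in 154Q-AXH, 10 at an unadjusted p under 0.05 (930 of 21754 over all genes), with a median direct difference of 0.65, but none was called. Their median difference from WT was −0.49 in 154Q and 0.09 in 154Q-AXH. C1ql2, a synaptic organiser of mossy fibre terminals, was at 24.5, 28.1 and 30.8 CPM in 154Q and at 36.5, 49.3, 49.2 and 97.3 CPM in 154Q-AXH, with WT at 54.7 to 84.3 CPM. Lct was at 16.8 to 20.0 CPM in 154Q and at 26.1 to 66.5 CPM in 154Q-AXH, with WT at 40.5 to 75.8 CPM. Prox1, the factor that fixes granule cell identity, was at 121, 103 and 114 CPM in 154Q and at 113, 160, 135 and 301 CPM in 154Q-AXH, so that its groups overlapped. Library AXH-218 was the highest of the 7 mutant libraries for each of these 3 genes. Without it the list's median was 0.35, and 8 of the 12 passed an unadjusted p under 0.05. With the number range of the mice as a covariate, none of the 12 passed it and the median was 0.41.

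Markers of other cells moved beside them. All 18 oligodendrocyte and myelin genes were lower in 154Q-AXH, with a median of −0.42 (−0.23 without library AXH-218). Of these, 6 passed an unadjusted p under 0.05 (687 of 21754 over all genes), and 3 did so without AXH-218. None passed without 154Q mouse 69, with the number range (median −0.12) or with Ttr (median −0.08) as a covariate, and 16 passed without AXH-207. Their summed level was 8711 to 10323 CPM in 154Q and 3709 to 9747 CPM in 154Q-AXH. Mal, a myelin proteolipid gene, was at 354, 358 and 354 CPM in 154Q and at 323, 295, 222 and 145 CPM in 154Q-AXH. Choroid plexus and ependymal markers had a median of −0.95, and summed to 2173 to 6253 CPM in 154Q and 203 to 5582 CPM in 154Q-AXH. Their leading gene Ttr, transthyretin, ran from 39.2 to 3116 CPM across the 4 154Q-AXH libraries. None of the 13 was called, and no marker of these 3 lists was at 0 in all 11 libraries. The part of tissue makeup in the differences of single neuronal genes was not tested. When Ttr was added to the fit as a covariate, the dentate median was 0.25, Hoxa2 and Hoxaas2 kept their calls, and Hoxc4 and Wt1 lost theirs (adjusted p = 0.237 and 0.125 in edgeR's test).

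Genes of the other hippocampal fields moved less. Of the 8 CA3 markers, 3 were higher at an unadjusted p under 0.05 (930 of 21754 over all genes), with a median of 0.15. Bok, a BCL-2 family gene, was at 25.7, 24.3 and 28.1 CPM in 154Q and at 30.5, 33.8, 31.4 and 45.2 CPM in 154Q-AXH, with WT at 62.5 to 70.1 CPM. The CA2 gene Rgs14, which encodes a regulator of G protein signalling, was at 48.7 ± 3.30 CPM in 154Q (SD, n = 3) and 58.7 ± 6.12 CPM in 154Q-AXH (n = 4), against 90.4 ± 4.34 CPM in WT (n = 4). Both genes were called against WT in each mutant genotype. The 10 CA1 markers had a median of −0.23, with 1 higher and none lower at an unadjusted p under 0.05. Their summed level was 537 CPM in library AXH-218, 827 to 887 CPM in the other 154Q-AXH libraries and 727 to 898 CPM in 154Q. Inhibitory interneuron markers had a median of −0.01, and 7 of 20 were lowered against WT in each mutant genotype. The lowered shares over all genes tested were 3.61% in 154Q and 2.06% in 154Q-AXH. Npy, neuropeptide Y, was at 34.8, 22.1 and 26.8 CPM in WT, 154Q and 154Q-AXH, and prodynorphin, Pdyn, at 13.2, 5.79 and 11 CPM. Library AXH-218 held 18.3 CPM of Pdyn, against 6.89 to 9.47 CPM in the other 154Q-AXH libraries.

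Genes of neuronal activity differed in both directions. Of 26 activity-induced immediate early genes, 6 were lower and 3 higher in 154Q-AXH at an unadjusted p under 0.05. The counts over all genes were 687 and 930 of 21754. The list had a median direct difference of −0.17 and no call, and 7 of the 26 had a difference above 0. With the number range as a covariate 1 was lower and 1 higher (median −0.05), and 2 were lower without 154Q mouse 69. Against WT, 9 were lowered in 154Q and 13 in 154Q-AXH, and none was raised. The lowered shares over all genes tested were 3.61% and 2.06%. Egr4 was at 24.2, 25.1 and 25.4 CPM in 154Q and at 18.9, 17.4, 20.0 and 17.0 CPM in 154Q-AXH, with a difference of −0.44 (−0.75 to −0.14). Fos was at 19.5, 15.9 and 14.0 CPM in 154Q and at 7.61, 5.63, 12.1 and 8.21 CPM in 154Q-AXH, while WT ranged from 8.86 to 29.8 CPM. Arc, an activity-regulated synaptic gene, was at 74.0 to 80.7 CPM in 154Q and 37.1 to 69.1 CPM in 154Q-AXH, with WT at 89.0 to 226 CPM. Egr1 followed, at 122 to 158 CPM and 55.0 to 103 CPM, with WT at 135 to 296 CPM. In these 4 genes, all of them lower in 154Q-AXH, the mutant groups did not overlap. Over the list, 9 of the 26 genes had 154Q-AXH libraries all below the 154Q libraries, and 2 had them all above. Over all genes tested these shares were 3.98% and 4.17%.

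Receptor and channel genes differed little between the mutant genotypes. Of 38 glutamate receptor genes, 5 were higher at an unadjusted p under 0.05 and none lower, with a median of 0.03. The counts over all genes were 930 higher and 687 lower of 21754. Cnih2, an auxiliary subunit of AMPA receptors, was at 171, 198 and 220 CPM in 154Q and at 226, 263, 229 and 271 CPM in 154Q-AXH, with WT at 320 to 396 CPM. The NMDA receptor gene Grin2c differed by 0.32 (0.12 to 0.53). Of 62 potassium channel genes, 7 were higher and 1 lower, with a median of 0.03, and Kcnip4, a channel-interacting protein, differed by 0.28 (0.13 to 0.44). The medians for GABA and glycine receptors and for calcium channel subunits were 0.02 and −0.04. Rin1, a Ras effector of forebrain neurons chosen after its values were seen, was at 36.7, 40.8 and 41.0 CPM in 154Q and at 48.0, 50.1, 49.3 and 54.3 CPM in 154Q-AXH, with WT at 71.2 to 90.2 CPM.

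Among the remaining lists, interferon-stimulated genes had a median of −0.15, with 5 of 25 lower and none higher in 154Q-AXH at an unadjusted p under 0.05. The counts over all genes were 687 lower and 930 higher of 21754. Against WT the median of the interferon-stimulated genes was 0.23 in 154Q, with 5 called as raised, and 0.09 in 154Q-AXH, with none called. The raised shares over all genes tested were 2.45% and 1.55%. Oasl2 was at 5.04, 5.41 and 5.25 CPM in 154Q and at 4.33, 4.18, 4.68 and 3.63 CPM in 154Q-AXH, with WT at 3.32 to 3.63 CPM. Rtp4 was at 2.55 to 2.77 CPM and 1.77 to 2.03 CPM, with WT at 1.34 to 2.06 CPM. Heat shock genes had a median of 0.0019, and Hspa1b, an inducible chaperone that shares nearly all its sequence with Hspa1a, was at 11.9, 4.37 and 5.95 CPM in WT, 154Q and 154Q-AXH. Cholesterol synthesis genes had a median of −0.08, with 4 of 24 lower at an unadjusted p under 0.05. Of 15 astrocyte markers, 13 were higher, with a median of 0.12, and the water channel gene Aqp4 differed by 0.38 (0.16 to 0.61). Oxidative phosphorylation subunits were higher in 44 of 46 genes, but with a median of 0.06, and Ndufs3 differed by 0.15 (0.01 to 0.29). No gene of these lists was called.

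**Figure D5:**
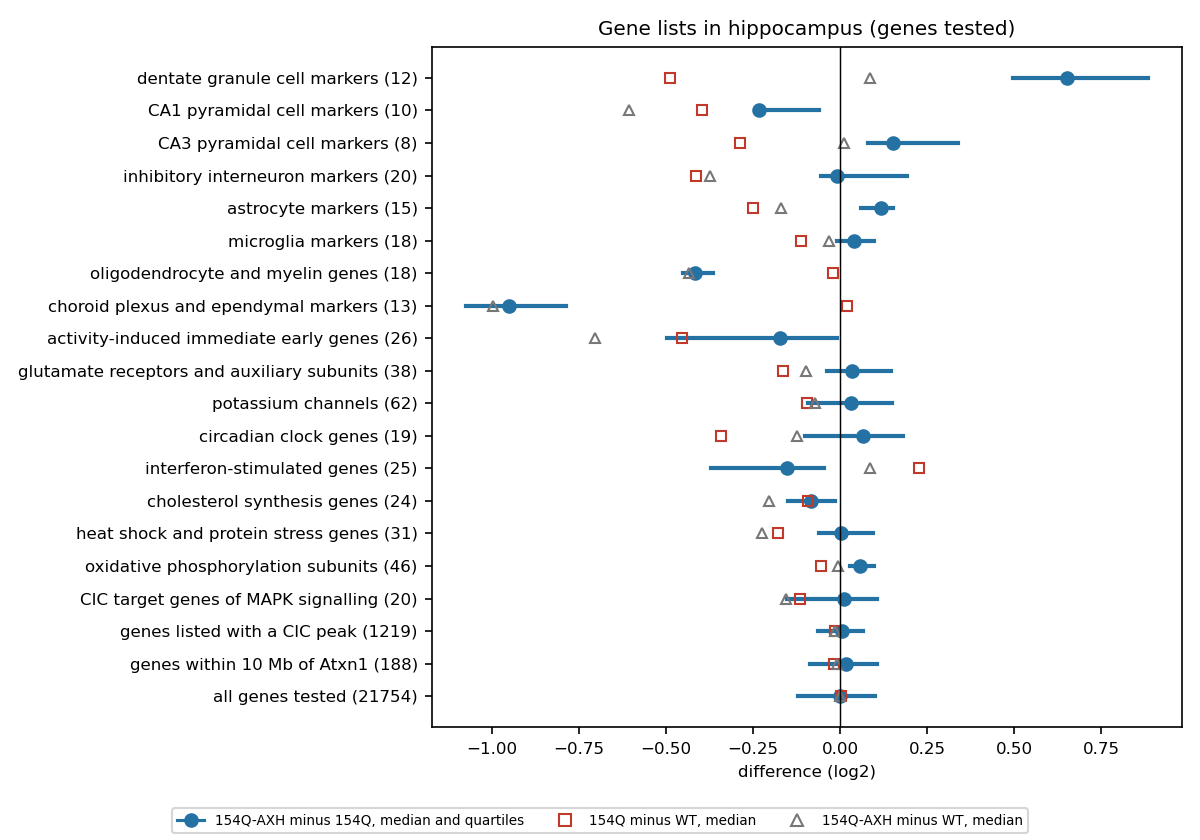
Median difference (log2) of gene lists in hippocampus, with the number of genes tested in parentheses: 154Q-AXH minus 154Q as filled circles with lines from the lower to the upper quartile, 154Q minus WT as open squares and 154Q-AXH minus WT as open triangles. Dentate granule cell markers lie at 0.65 and choroid plexus markers at −0.95 for the direct difference, and the lists of CIC targets lie near 0, as do all genes tested.

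Genes near the edited allele could differ by linkage, so those within 10 Mb of Atxn1 were examined. Of 188 tested, none was called, with 10 higher and 4 lower at an unadjusted p under 0.05 (930 and 687 of 21754 over all genes). The median over the 188 was 0.02. The lowest p belonged to Dsp, which encodes desmoplakin and is also a dentate granule marker (1.19, 0.45 to 1.93, with 222 CPM in library AXH-218 and 69.7 to 105 CPM in the other 154Q-AXH libraries). Rbm24, an RNA-binding protein gene, followed with 0.46 (0.16 to 0.75).

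The same comparison in the other regions called 7 genes in cerebellum (0.0335% of 20874) and none in brainstem, striatum or cortex by edgeR's test, where 1163, 601 and 1241 genes had an unadjusted p under 0.05. The mice carry the same numbers in each region, but brainstem had 3 154Q-AXH libraries and none of mouse AXH-217. Against WT, 154Q differed in 5.22% of genes in cerebellum, 0.538% in brainstem, 5.68% in striatum and 11.1% in cortex, and 154Q-AXH in 2.21%, 0.0138%, 1.35% and 7.15%. Plk5 was called in cerebellum, with 31.6 to 38.4 CPM in 154Q and 43.4 to 56.2 CPM in 154Q-AXH, against 66.5 to 71.7 CPM in WT (0.58, SE 0.08, adjusted p = 0.0274 in edgeR's test). In striatum and cortex Plk5 was called as lower than WT in both mutant genotypes. The differences for 154Q and 154Q-AXH were −2.67 and −2.22 in striatum, and −2.69 and −2.69 in cortex. The direct differences there were 0.44 (SE 0.24) and −0.01 (SE 0.24).

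Of the 4 called genes, Hoxa2 and Hoxaas2 had at most 2 and at most 4 counts in any striatal or cortical library of any genotype. Those libraries were less deep, with 28058359 to 54719126 read pairs on genes, against 69468491 to 106454315 in hippocampus. In cerebellum, Hoxa2 had at most 7, 13 and 25 counts in WT, 154Q and 154Q-AXH, and Hoxaas2 at most 9, 11 and 23. In brainstem, Hoxa2 had 307 to 487 counts in every genotype, with a direct difference of −0.02 (SE 0.09). Wt1 was called against WT in both mutant genotypes in striatum, by 3.93 in 154Q and 3.75 in 154Q-AXH (adjusted p = 0.00363 and 0.013). Its direct difference there was −0.18 (SE 0.41). In cortex Wt1 was raised by 2.32 and 2.10 (adjusted p = 0.00201 and 0.00752), with a direct difference of −0.22 (SE 0.30). Hoxc4 was at 0 counts in all WT striatal libraries, at 11 to 27 in 154Q and at 4 to 25 in 154Q-AXH. In cortex it had 0 to 2, 5 to 29 and 0 to 8 counts. Twist1 was raised in 154Q striatum and cortex by 2.52 and 1.98, and its direct differences there were −1.05 (SE 0.27) and −0.77 (SE 0.31), neither of them called (adjusted p = 0.945 and 0.744).

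Whether the difference between the mutant genotypes was itself different in hippocampus and cerebellum was tested by an interaction in 1 model of both regions. It called 2 of 22985 genes (0.0087%). Plcb3, a phospholipase C gene of Purkinje cells, differed by −0.08 in hippocampus and 0.43 in cerebellum, an interaction of −0.51 (SE 0.07, adjusted p = 0.00937 in edgeR's test). A830018L16Rik differed by 0.27 in hippocampus and −0.43 in cerebellum, an interaction of 0.71 (SE 0.11, adjusted p = 0.0156). Next were Skor1, at −1.94 and −0.08 (adjusted p = 0.174), and Cdh9, a cadherin gene, at 0.57 and −1.03 (adjusted p = 0.2). With the mouse as a replicate block, neither Plcb3 (adjusted p = 0.0743) nor A830018L16Rik (0.109) was called, and Hoxaas2 was the 1 gene called (0.00435%; −4.64, adjusted p = 0.0157).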

How the data were processed

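Poly(A) RNA of dissected hippocampus was sequenced as paired ends by the authors. Reads were trimmed with Trimmomatic (0.36) and aligned with STAR (2.7.2d) to mouse build GRCm38.p6. The deposited values are whole-number counts of read pairs per gene, and the unstranded column was used, since the protocol gave about equal shares on both strands. Rows that name no gene were left out of library sizes and tests, and 75.3 to 78.1% of the pairs of a library were on genes. Gene symbols and positions came from GENCODE M21 on the same build. The 11 hippocampal libraries, by labelled genotype, were fitted together in edgeR 4.0.16 (R 4.3.3) with TMM scaling, the filterByExpr filter and the quasi-likelihood test, and p-values were adjusted by Benjamini-Hochberg over all genes tested. Other regions were fitted in the same way. DESeq2 1.42.0 was an alternative. Other alternatives were its size factors, no filter on low counts, the mutant libraries alone, covariates (number range, Xist, Ttr), the left-out library, and fits without 1 library at a time. The scripts were tested on simulated data.

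CPM values are counts per 1000000 assigned to genes, scaled by TMM. Intervals on ratios of summed counts are 95% and cover counting error only. The labels do not say which samples are separate litters or cages, so p-values measure the spread between these mice. Genes and lists were chosen with earlier results of these data known. Named genes were those called, the ATXN1 partner list, the members of each list with the lowest p and the 4 lowest interaction p-values. Every other gene named, such as those called by DESeq2 and the further members of the CIC, dentate, immediate early and Hox groups, was chosen after its values were seen. Equal mouse numbers were taken as the same mouse across regions. Over the 11 mice shared by hippocampus and cerebellum, deviations from the group means correlated at −0.404 to 0.628, with 7 of 11 over 0.1. For 1 cortical pair (mice 76 and 207) the file names and labels disagreed, and the labels were used. Some genes of the lists are not reported here.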

Additional observations from a re-analysis of the deposited data

Results flagged for a closer look

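Of 140 groups of 4 libraries tested for a library far from the rest (70 genes in WT and in 154Q-AXH), 5 had one, where chance gives about 1 in 20. In WT mouse 220, Bdnf was at 54.3 CPM and CT010467.1, a transcript that shares 73.9% of its exon bases with Gm42418 on the other strand, was at 79.5 CPM. The other 3 were in 154Q-AXH mouse AXH-218, with Dusp6 at 31.1 CPM, Grin2c at 50.4 CPM and Bhlhe40 at 55.7 CPM.

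The difference between the mutant genotypes was itself different in hippocampus and cerebellum by an interaction term for Plcb3 (−0.51) and A830018L16Rik (0.71). Neither was called with the mouse as a replicate block (adjusted p = 0.0743 and 0.109 in edgeR's test).

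The left-out 154Q library of mouse 76 held 610 CPM of hindbrain markers in sum, against 4.22 to 6.39 CPM in the WT libraries.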

How the results depend on the processing

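Against 4 genes called in the direct comparison, DESeq2 called 19, the 7 mutant libraries alone 1, a Ttr covariate 2, and fits without 1 library 2 to 3. With the number range as a covariate 0 were called by edgeR (2515 genes at an unadjusted p under 0.05), and with mouse 76 included 0 (2356). With the number range, Hoxaas2 was at −0.38, Hoxc4 at −0.83 and Wt1 at −2.08, and Hoxa2 could not be estimated. The range is estimated through the WT mice alone, with 1, 1, 0 and 0 counts of Hoxaas2 and 2, 2, 0 and 1 of Hoxc4. So few reads cannot separate the number range from the substitutions for these genes. Hoxc4 with mouse 76 was at −6.13. DESeq2's size factors, no filter and an Xist covariate called 4, 5 and 4. The median over lowered genes was 0.0248 with the number range and 0.128 with mouse 76, and 0.05 to 0.11 without 1 library. The median over raised genes was −0.05 to −0.0024 without 1 library. The number range itself was called in 22 genes, against 384 in DESeq2 and 37 with no filter. Signs turned with the number range for Hspa1b (−0.0458), Bhlhe40 (−0.0566) and Scn9a (0.0701), and with mouse 76 for Atxn1 (0.0514) and Penk (−1.60). Without 1 library, Cic ranged from −0.0709 to 0.00709, Rfx1 from −0.244 to 0.0328, Scn9a from −0.21 to 0.0497 and Zkscan1 from −0.0496 to 0.00239. The cause of these changes was not tested. The 95% interval lay within 1.5-fold for 84.8% of genes over 1 CPM and for 60.6% of all genes.

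No paired analysis was possible because the 154Q and 154Q-AXH groups share no mouse number. In the interaction model, the mouse as a replicate block left 1 gene called in place of 2, DESeq2 called 10, and leaving out 1 library gave 1 (154Q mouse 69) to 7 (154Q-AXH mouse AXH-207). Of the 11 mice, 5 correlated best with their own number.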

Other observations

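Blood cell markers were lower than WT in 154Q in all 5 genes tested, each by a call, with a median of −1.21. In 154Q-AXH their median was −0.78, and none of the 5 was called. The lowered shares over all genes tested were 3.61% in 154Q and 2.06% in 154Q-AXH. The direct difference of the 5 genes had a median of 0.43 with no call. Summed levels overlapped, at 33.6 to 43.1 CPM in 154Q and 27.9 to 74.6 CPM in 154Q-AXH, against 57.6 to 135 CPM in WT.

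Circadian clock genes had a median difference from WT of −0.34 in 154Q, with 7 of 19 called as lowered, and of −0.13 in 154Q-AXH, with 3 called. The lowered shares over all genes tested were 3.61% and 2.06%. Between the mutant genotypes 4 of the 19 were higher and none lower at an unadjusted p under 0.05 (930 and 687 of 21754 over all genes). The list's median direct difference was 0.07, with no call.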
